A study of Mus musculus with 44 samples.

Results

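Of the 25697 probes on the arrays, 110 ranked higher on the AUF1 pulldown array than on the IgG array in each of 14 pairs of arrays, and these 110 probes are described here. They were chosen by their pulldown signal. Log2 signals of the 29 pulldown arrays were quantile-normalized, which gives every array the same distribution of values, and AUF1 and IgG arrays of the same day and experiment number were paired. A probe was kept if its detection p-value was under 0.05 on all 14 AUF1 arrays, if AUF1 was above IgG in all 14 pairs, and if the mean difference over the pairs was at least 0.4 log2 units. Of 4635 probes detected on all 14 AUF1 arrays, 180 were above IgG in every pair, which is 3.88%, and 70 of them had a mean difference under the limit. AUF1 minus IgG differences of the 110 probes are therefore given as a description, without a test. Higher here means higher in rank among the probes of an array. Under median scaling only 5 of the 110 probes kept a mean difference above 0, and without normalization 3. The same rule gave 210, 166, 244 and 188 probes without the day 6 pair of experiment 1, 2, 3 or 4.

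The cells were C2C12, an established line of mouse myoblasts that stop dividing and fuse into myotubes when serum is lowered. Day 0 cells grew in medium with fetal bovine serum, and later days count from the change to differentiation medium with horse serum. The labels name no genetic change in any group, so no group without AUF1 serves as a control. Lysates were incubated with beads carrying an antibody against AUF1 (4, 3, 3 and 4 arrays on days 0, 2, 4 and 6) or control IgG (4, 3, 4 and 4 arrays). Input RNA, total RNA without pulldown, was measured on days 0, 3 and 6 with 5 arrays each. Input arrays 33 and 36 of day 0 both carry experiment number 1. Arrays 37 and 40 of day 3 share number 2, and 41 and 44 of day 6 share number 3. The main input p-values treat all 5 arrays of a day as separate samples. The labels do not say whether replicates were separate cultures, so p-values measure the spread between these samples, which may be technical. Cells of a culture differ in how far they have differentiated, and in bulk RNA fewer cells of a type and less RNA per cell cannot be told apart. Markers of myoblasts and myotubes were not analysed here, because the probes are known only by Illumina identifier and 0 of the identifiers occurred in the gene table at hand. No gene names or sequences are given for the same reason.

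AUF1, encoded by Hnrnpd, is an RNA-binding protein that recognises AU-rich stretches, which are common in the 3′ untranslated regions of short-lived mRNAs. Depending on the transcript and the cell it can speed mRNA decay, stabilise mRNA or promote translation. In muscle cells it has been linked to the differentiation program, and the labels describe the pulldowns as a search for mRNAs bound by it. RNA recovered with control IgG measures what beads and an unrelated antibody bring down. A pulldown signal depends on how much of an RNA the cell holds as well as on its binding, which is why the input level and time course of the 110 probes are set beside it.

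AUF1 arrays were dimmer than IgG arrays. The share of probes detected ran from 24.4% to 45.5% (median 35.9%, n = 14) on AUF1 arrays, from 25.6% to 46.8% (median 43.5%, n = 15) on IgG arrays and from 44.7% to 48.7% (median 47.1%, n = 15) on input arrays. On 4 AUF1 arrays under 30% of the probes were detected. An IgG array of day 4, experiment 2, had only 25.6% detected and no AUF1 partner. It entered the normalization but not the choice of probes.

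The differences were moderate in size and every probe had pairs in which it was small. The mean difference over 14 pairs ran from 0.40 to 0.95 log2 units with a median of 0.52, which is 1.32-fold to 1.94-fold with a median of 1.43-fold. It was at least 0.6 for 32 probes and under 0.5 for 47. The SD over the pairs ran from 0.17 to 0.66 (median 0.32). In its weakest pair the median probe was 0.05 above IgG, and 93 of the 110 probes had a pair with a difference under 0.1. In its strongest pair the median probe was 1.12 above IgG, and the highest single difference was 2.30. Among the 110 probes 0 had their lowest AUF1 array above their highest IgG array over all days, so each probe overlapped between the antibodies once days were mixed. The same holds for nearly all of the 4635 probes, since on day 6 alone only 0.367% of them had no such overlap. Nothing is read from the 0.

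The probe with the largest mean difference was ILMN_2712120, at 0.95 ± 0.66 (SD, 14 pairs). On day 0 its normalized log2 signal was 10.58, 10.57, 10.41 and 10.76 on the AUF1 arrays of experiments 1 to 4 and 9.61, 10.30, 9.64 and 9.93 on the IgG arrays. On day 2 it was 11.78, 11.37 and 11.07 with AUF1 against 9.47, 9.64 and 10.37 with IgG in experiments 1, 2 and 4. Every AUF1 array was above every IgG array on both days. On day 4 the AUF1 arrays of experiments 1, 3 and 4 read 11.02, 11.48 and 10.42 and their IgG partners 9.38, 9.71 and 9.57. The unpaired IgG array of day 4 read 10.34, above its IgG neighbours and just below the lowest AUF1 array. On day 6 the AUF1 arrays read 9.79, 9.95, 9.82 and 9.71 and the IgG arrays 9.48, 9.20, 9.81 and 9.26. The antibodies overlapped on day 6, and in experiment 3 the pair differed by 0.01. The day 6 difference was 0.38 ± 0.31 (SD, n = 4) against 1.58 ± 0.81 (SD, n = 3) on day 2.

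ILMN_1218325 had a mean difference of 0.90 ± 0.59 (SD, 14 pairs) and the steepest drop to day 6 of the 110 probes. On day 0 it read 10.58, 10.9976, 10.76 and 10.99 with AUF1 and 9.20, 9.98, 10.08 and 10.29 with IgG. On day 2 it read 11.44, 11.67 and 11.19 with AUF1 and 9.61, 10.29 and 10.51 with IgG. On day 4 it read 11.23, 11.44 and 10.90 with AUF1, 9.57, 10.06 and 10.20 with the paired IgG and 10.68 on the unpaired IgG array. The groups were apart on all of these days. On day 6 it read 10.57, 10.99, 11.58 and 10.66 with AUF1 and 10.56, 9.95, 11.46 and 10.65 with IgG. The pairs of experiments 1, 3 and 4 then differed by 0.01, 0.12 and 0.02, and the day 6 difference lay 0.86 below the mean of days 0, 2 and 4. Here the mean IgG level was higher on day 6 (10.65 ± 0.62, SD, n = 4) than on day 0 (9.89 ± 0.48, SD, n = 4), while the AUF1 level was similar (10.95 ± 0.46 and 10.83 ± 0.20).

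ILMN_2640971, with a mean difference of 0.90 ± 0.46 (SD, 14 pairs), was instead lower with AUF1 on day 6. It read 9.35, 9.63, 9.70 and 9.74 with AUF1 on day 0 and 8.25, 8.80, 8.81 and 8.31 on day 6. With IgG it read 8.08, 8.56, 8.74 and 9.07 on day 0 and 8.02, 7.84, 8.55 and 8.26 on day 6. The AUF1 arrays of the days did not overlap, whereas the IgG arrays did. The difference was 0.99 on day 0 and 0.37 on day 6.

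ILMN_2945095 and ILMN_2942573 stood out for the unpaired IgG array. ILMN_2945095 had a mean difference of 0.90 ± 0.60 (SD, 14 pairs), read 7.78, 8.44 and 6.96 with AUF1 on day 4 and 6.41, 6.64 and 6.35 on the paired IgG arrays. The unpaired IgG array read 8.16, above all but 1 AUF1 array of that day. ILMN_2942573, at 0.86 ± 0.57 (SD, 14 pairs), read 7.77, 8.05 and 7.06 with AUF1, 6.32, 6.33 and 6.30 with the paired IgG and 7.61 on the unpaired array. Both were also among the 3 probes, with ILMN_2774056, whose mean difference stayed above 0 without normalization. It was 0.04, 0.12 and 0.03 log2 units for ILMN_2945095, ILMN_2942573 and ILMN_2774056. All 3 had low raw signals. In day 4 experiment 3 they read 101.8, 85.9 and 66.1 with AUF1 and 113.7, 81.2 and 57.4 with IgG. The median raw signal of all probes on these arrays was 54.3 and 55.4. After normalization the same pair differed by 1.80, 1.72 and 1.17, so small raw gaps became large ones on this dim AUF1 array (24.5% detected).

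The other probes of the 8 with the largest means were ILMN_2961005 (0.89 ± 0.40), ILMN_2691528 (0.86 ± 0.52) and ILMN_3158909 (0.85 ± 0.60, SD, 14 pairs each). ILMN_3158909 was 1 of 2 probes, with ILMN_2619362, whose AUF1 arrays all lay above all IgG arrays on day 6. It read 9.65, 9.49, 9.51 and 9.50 with AUF1 on day 6 and 9.16, 9.28, 9.41 and 9.34 with IgG, a narrow gap. On day 0 its antibodies overlapped, with 10.97, 9.53, 11.01 and 11.12 for AUF1 and 8.82, 8.34, 10.41 and 10.92 for IgG. ILMN_2619362 was singled out after its values were seen.

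Probes near the limit looked alike on either side of it. The 3 just inside were ILMN_1252760, ILMN_2702997 and ILMN_1214965, with mean differences of 0.4045, 0.4017 and 0.4016. The 3 just outside were ILMN_2767918, ILMN_1221067 and ILMN_2802263, with 0.3948, 0.3946 and 0.3944. A further 286 probes met the limit on the mean and were above IgG in all pairs but 1, more than the 110 chosen, and 3 probes failed only on detection. In the opposite direction, 136 of the 4635 probes were below IgG in all 14 pairs with a mean of -0.4 or lower.

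The difference was smallest on day 6 for nearly all of the 110 probes. The median of the probes' mean differences was 0.60, 0.67, 0.69 and 0.22 for days 0, 2, 4 and 6. The mean of the pair medians was 0.59 ± 0.18 (SD, n = 4), 0.69 ± 0.17 (n = 3), 0.72 ± 0.15 (n = 3) and 0.20 ± 0.11 (n = 4) on these days. Days 0, 2 and 4 thus lay within their spread of each other, and day 6 lay below them. On quantile-normalized values all 110 probes had a smaller difference on day 6 than the mean of days 0, 2 and 4, and for 107 day 6 was the smallest of the 4 days. A difference of at least 0.4 was reached by 100, 106, 107 and 8 probes, in the order of the days. Under median scaling the day 6 difference was smaller for only 8 probes, and the day medians were 0.12, -0.82, -1.10 and -0.19, so the order of days turned. Background correction before quantile normalization kept it, with 0.71, 0.82, 0.87 and 0.30.

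The day with the largest difference varied among the probes. Day 4 was the highest for 50 probes, day 2 for 47 and day 0 for 13, while 0 probes had it on day 6. Of the 110 probes, 50, 89, 68 and 2 had all AUF1 arrays above all IgG arrays for days 0, 2, 4 and 6. Among the 4635 probes detected on all AUF1 arrays the shares were 8.22%, 18.4%, 14.8% and 0.367%, and since the same contrast chose the probes, nothing is read from the excess. Without the unpaired IgG array the day 4 count was 90, against 20.5% of the 4635.

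ILMN_2982890 had a drop to day 6 almost as steep as ILMN_1218325, with 0.86, 1.16, 1.00 and 0.15 on days 0, 2, 4 and 6. At the other end, ILMN_2733524 and ILMN_2721439 had the smallest drop. ILMN_2733524 differed by 0.38, 0.51, 0.68 and 0.49 on the 4 days and ILMN_2721439 by 0.39, 0.36, 0.60 and 0.39. No probe had a larger difference on day 6 than on the mean of the earlier days. Both of the last probes owed much of their day 6 mean to experiment 2, where they differed by 1.26 and 0.92, the largest of their 14 pairs.

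The drop was not restricted to the 110 probes. In the 136 probes below IgG in every pair, the median difference was -0.76, -0.93, -0.88 and -0.41 on days 0, 2, 4 and 6. Over the 4635 probes detected on all AUF1 arrays, the median size of the difference, whatever its sign, was 0.31, 0.36, 0.36 and 0.13. These sets share the arrays of the 110 probes.

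On day 6 the normalized level with AUF1 was lower than on day 0, while the normalized level with IgG was close to that of day 0. Expressed as a percentile among all probes of the same array, the median of the 110 probes lay with AUF1 at 93.3 ± 0.59 (SD, n = 4), 93.6 ± 0.31 (n = 3), 93.2 ± 0.70 (n = 3) and 90.9 ± 1.61 (n = 4) for days 0, 2, 4 and 6. With IgG it lay at 89.8 ± 1.79 (n = 4), 89.6 ± 1.31 (n = 3), 89.4 ± 0.64 (n = 4) and 89.2 ± 2.08 (n = 4). From day 0 to day 6 the median change of the probes was -0.40 log2 units with AUF1, where 13 of 110 were higher on day 6, and -0.06 with IgG, where 45 were higher. Raw signal did not show the drop with AUF1. The median raw signal of the 110 probes was 410.6, 229.4, 573.3 and 558.5 on the AUF1 arrays of day 0. On those of day 6 it was 503.7, 224.3, 486.6 and 430.8, so the days overlapped.

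The size of the difference went with how much dimmer the AUF1 array of a pair was, fully on days 0 and 4 and in part on days 2 and 6. On day 0 the IgG array had 7.38, 5.39, 4.68 and 3.73 percentage points more probes detected in experiments 1 to 4, and the median difference of the 110 probes was 0.83, 0.63, 0.50 and 0.40. On day 2 the gaps of 13.6, 14.9 and 6.02 points went with 0.81, 0.76 and 0.49 in experiments 1, 2 and 4. On day 4 gaps of 11.9, 19.0 and 6.99 points went with 0.71, 0.87 and 0.57 in experiments 1, 3 and 4. The larger the gap, the larger the difference on days 0 and 4, and on day 2 apart from experiments 1 and 2, whose gaps and medians were close. On day 6 the gaps were 0.29, 2.36 and 0.84 points in experiments 1, 3 and 4, with medians of 0.16, 0.14 and 0.13. These medians were close and did not follow the order of the gaps. Experiment 2 of day 6 had a gap of 9.25 points and a median of 0.37, so the day 6 pair that resembled the earlier days in detection also came nearest to them in difference. Over all days, 5 pairs with a gap under 5 points had medians of 0.13 to 0.50 and 9 pairs with a larger gap had 0.37 to 0.87. The part of the detected share in the difference, and in its drop on day 6, was not tested.

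Before normalization the 110 probes were mostly lower with AUF1. The median unnormalized difference was below 0 in 11 of the 14 pairs, with a range from -1.65 in day 4 experiment 3 to 0.09 in day 6 experiment 1, and 0 of the probes were above IgG in all pairs. The median of the 4635 detected probes was -2.20 and -0.05 in these pairs. The median of the 110 probes lay above it in all 14 pairs, and since the rule chose the probes by their rank in these pairs, nothing is read from this. The median raw signal of the 110 probes on an array ran from 123 to 573 with AUF1 (median 304, n = 14), from 94.1 to 723 with IgG (median 470, n = 15) and from 258 to 519 in input (median 317, n = 15).

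The unpaired IgG array of day 4 was as dim as the dimmest AUF1 arrays. The rule did not compare this array, but the AUF1 arrays set beside it here chose the probes. A lower level on this 1 array was thus favoured in advance, and nothing is read from that. The median of the 110 probes lay at the 90.01th percentile on the unpaired array, against 93.9 and 94.0 on the AUF1 arrays with 24.4% and 24.5% detected. It was 0.55 log2 units below the day 4 AUF1 mean and 0.18 above the mean of the other day 4 IgG arrays, as medians over the probes. It lay above the AUF1 mean for 21 probes and above every day 4 AUF1 array for 8. Of these 21 probes, 12 were among the 37 dimmest of the 110 probes in input and 3 among the 37 brightest. Over all arrays of a kind, the median percentile of the 110 probes ran from 89.4 to 94.0 with AUF1, from 87.2 to 92.3 with IgG and from 85.0 to 88.2 in input. On the 3 IgG arrays with under 36% of the probes detected, the median percentile was 90.01 to 92.3, and on the other 12 it was 87.2 to 91.1.

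In input RNA, which the rule did not use, the 110 probes were well expressed but not among the brightest. Input levels were background-corrected and normalized over the 15 input arrays, a separate scale from the pulldown values. The median probe lay at the 87.0th percentile of all probes (range 56.1 to 99.6), at a log2 level of 8.25 (range 4.85 to 12.48). The 4635 probes detected on all AUF1 arrays had a median percentile of 89.5, and the 136 probes below IgG in every pair had 92.5. Of the 110 probes, 108 (98.2%) were detected on all 15 input arrays, near the 97% of the 4635 and above the 35.5% of all probes. At or above the 90th percentile of input lay 40 of the 110 (36.4%), against 48.2% of the 4635 and 10% of all probes. On all 15 IgG arrays 100 of the 110 were detected. Detection on every AUF1 array was part of the rule, so the 4635 are the nearer comparison.

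The 110 probes all lay above the middle of the input range, and of the 4635 probes detected on all AUF1 arrays only 1 lay below it. The 110 probes differed widely within the upper part of the range. The brightest was ILMN_3133448 at 12.48, with 11.30 to 12.56 on AUF1 and 11.15 to 12.37 on IgG arrays and a mean difference of 0.45 ± 0.31 (SD, 14 pairs). Next came ILMN_1253387 at an input level of 11.19. The dimmest were ILMN_2774056 at 4.85 and ILMN_1214965 at 4.97, with mean differences of 0.44 ± 0.37 and 0.40 ± 0.35 (SD, 14 pairs). ILMN_2774056 was detected on only 7 of the 15 IgG arrays, so its IgG values were mostly near background. Split by input level, the 37 dimmest probes had a median difference of 0.49, the middle 36 had 0.54 and the 37 brightest had 0.54, against a median SD over pairs of 0.31, 0.31 and 0.33. A relation of the difference to the input level was not tested, and the rule cut the differences at 0.4. The day 6 medians of these groups were 0.21, 0.23 and 0.25.

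During differentiation more of the 110 probes fell than rose in input RNA. Between day 0 and day 3, 37 probes fell and 14 rose (limma on 15 input arrays, adjusted p under 0.05 over 13750 tested probes), which is 33.6% and 12.7% of the 110. Over all tested probes 20.3% fell and 17.2% rose, and over the 4635 detected on all AUF1 arrays 25.1% fell and 21.1% rose. The median change of the 110 probes was -0.23 log2 units, against -0.02 over all tested probes and -0.06 over the 4635. Of the 110 probes, 15 fell and 5 rose by at least 2-fold. Over the 13750 tested probes 944 fell and 977 rose by as much, and over the 4635 it was 382 and 400.

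By day 6, 40 of the 110 probes had fallen and 16 had risen against day 0, or 36.4% and 14.5%. The shares over all tested probes were 23% lower and 19.5% higher, and over the 4635 they were 28.3% lower and 21.8% higher. The median change was -0.17, against -0.03 and -0.08. The total share called was close to that of the 4635 (56 probes, 50.9% against 50.1%), while its split between the directions leaned to lower. Among the 136 probes below IgG in every pair, 35 fell and 40 rose by day 6. Whether these shares differ between the sets was not tested.

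Most input calls of the 110 probes were shared by days 3 and 6. Of 58 probes called on day 3 or day 6, 49 were called on both days in the same direction (35 lower, 14 higher) and 0 in opposite directions. That is 44.5% of the 110 called on both days, against 33.2% of all tested probes and 41.3% of the 4635. Among probes called on either day, the call was shared for 84.5% in the 110, 71.2% over all tested probes and 75% in the 4635. Most calls were thus shared in every set, and a difference between the sets was not tested. On both days 2503 of all tested probes were lower and 2063 higher, and of the 4635 it was 1059 and 854. The comparisons of day 3 and day 6 with day 0 share the day 0 arrays. Between day 3 and day 6, 0 of the 110 probes were called by limma at adjusted p under 0.05. An unadjusted p under 0.05 was found for 5 of the 110, 969 of the 13750 tested probes and 303 of the 4635. In that comparison 0.422% of all tested probes rose and 0.0291% fell, and of the 4635 0.151% rose and 0.0216% fell, so 0 of 110 is near the share over all probes. A replicate block with arrays of neighbouring array numbers as pairs on days 3 and 6 was chosen after seeing the data. With it the limma fit again called 0 of the 110, and the lowest adjusted p among the 110 was 0.0659. An unadjusted p under 0.05 was then found for 17 of the 110, 2268 of the 13750 tested probes and 832 of the 4635. With this block 2.73% of all tested probes (376, against 53 without it in a fit of days 3 and 6 alone) and 2.39% of the 4635 were called. The median change of the 110 probes from day 3 to day 6 was 0.01, within a range from -0.44 to 0.42, whereas changes from day 0 to day 6 ran from -2.24 to 1.98. Of the 110 probes, 52 were called in none of the input comparisons. Called against day 0 on either day were 58 of the 110, 6417 of the 13750 tested probes and 2551 of the 4635.

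ILMN_1253387 rose most. Its normalized log2 input level was 9.88, 10.26, 9.13, 10.35 and 9.97 on the 5 day 0 arrays, 11.73, 12.28, 11.69, 11.63 and 11.47 on day 3 and 11.69, 11.97, 12.10, 11.88 and 11.85 on day 6. All 10 later arrays were above all day 0 arrays, and the day 6 change was 1.98 ± 0.20 (SE), or 3.94-fold, with adjusted p = 5.77e-07 by limma. Its pulldown level also was higher on day 6 than on day 0, by 0.43 with AUF1 and 0.76 with IgG, and the difference between the antibodies was 0.69 on day 0 and 0.36 on day 6.

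ILMN_2724585 read 8.81, 8.35, 8.32, 8.98 and 8.87 on day 0, 10.04, 10.77, 10.46, 10.22 and 10.28 on day 3 and 10.40, 10.43, 10.85, 10.15 and 10.42 on day 6. The days did not overlap with day 0, and the day 6 change was 1.79 ± 0.18 (SE, adjusted p = 3.43e-07 by limma). It was higher on day 6 in both pulldowns too, by 0.77 with AUF1 and 0.89 with IgG. ILMN_2859917 and ILMN_2734142 rose by 1.41 ± 0.31 and 1.39 ± 0.28 (SE, adjusted p = 0.00122 and 0.000574 by limma). For ILMN_2734142 the day 0 arrays read 6.40, 6.33, 6.72, 6.69 and 8.23, so 1 day 0 array overlapped with the later days.

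ILMN_2476139 fell most. It read 10.97, 10.67, 10.33, 10.34 and 10.47 on day 0, 8.66, 8.75, 8.11, 8.91 and 8.48 on day 3 and 8.89, 8.95, 7.50, 8.11 and 8.13 on day 6. All later arrays were below all day 0 arrays, and the probe fell by 2.24 ± 0.24 (SE) on the log2 scale by day 6, or 4.73-fold (adjusted p = 1.01e-06 by limma). In the pulldowns its AUF1 mean changed by -0.30 from day 0 to day 6. It read 9.88, 9.91, 9.71 and 9.78 with AUF1 on day 0 and 9.75, 10.05, 9.22 and 9.05 on day 6, with a change of 0.13 in the IgG mean. The AUF1 arrays of the days overlapped.

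ILMN_2598852 fell by 2.19 ± 0.24 (SE, adjusted p = 1e-06 by limma), from 12.27, 12.34, 11.80, 11.97 and 11.26 on day 0 to 9.67, 9.34, 9.57, 10.09 and 10.00 on day 6. It was lower on day 6 in both pulldowns, by -0.93 with AUF1 and -0.94 with IgG, so the difference was 0.51 on day 0 and 0.52 on day 6. In between it was not constant. The pairs of experiments 1, 2 and 4 differed by 1.51, 0.58 and 0.46 on day 2. Those of experiments 1, 3 and 4 differed by 1.42, 1.26 and 1.11 on day 4. On day 6 experiments 1 to 4 differed by 0.42, 1.33, 0.10 and 0.23, so the day 6 mean owed much to experiment 2. ILMN_2755660 and ILMN_2674228 fell by 1.98 ± 0.20 and 1.42 ± 0.19 (SE, adjusted p = 3.53e-07 and 1.22e-05 by limma), each with no overlap between day 0 and day 6 arrays.

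Of the 8 probes with the largest pulldown difference, 3 were called in input by day 6, and all of these fell. In this comparison 42.4% of all tested probes and 50.1% of the 4635 were called, so nothing is read from 3 of 8. ILMN_3158909 fell by 1.15 ± 0.26, ILMN_2640971 by 0.72 ± 0.18 and ILMN_2942573 by 0.57 ± 0.21 (SE, adjusted p = 0.00181, 0.00412 and 0.0333 by limma). ILMN_2942573 lost its day 6 call under 6 of 19 alternative settings. ILMN_2712120, first in the pulldown, changed by -0.35 ± 0.16 (SE, adjusted p = 0.0946 by limma) and was not called. Of the probes with the steepest and the smallest drop of the difference on day 6, ILMN_2982890 fell by 1.05 in input and ILMN_2733524 by 1.06 (adjusted p = 0.000206 and 1.83e-05 by limma).

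The day 6 differences are given next by the direction of the input change. The median difference on days 0 and 6 was 0.64 and 0.22 for the 16 probes that rose in input by day 6, 0.57 and 0.23 for the 40 that fell and 0.61 and 0.22 for the 54 not called. The rule used these differences, and whether the drop differs between the classes was not tested. Levels within each pulldown ranked as the input did. The median change from day 0 to day 6 with IgG was 0.21, -0.21 and -0.03 for probes that rose, fell or were not called in input, and with AUF1 it was -0.23, -0.54 and -0.35. With IgG, 12 of the 16 probes that rose in input were higher on day 6, and with AUF1 5 of 16. The input and pulldown arrays were normalized separately, so only the order of these changes is compared.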

How the data were processed

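RNA of C2C12 cells was measured on 44 Illumina arrays. Per the file headers, the authors' deposited values are non-normalized intensities, each with its detection p-value. GenomeStudio 1.6.0 appears in the submitters' processing notes. No label or header records a background subtraction. The titles of input samples speak of DNA, their descriptions of RNA, and they were treated as RNA. Column names carry a group, an experiment number and an array number, and columns were assigned to groups only.

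Pulldown signals were taken to log2 and quantile-normalized with limma 3.58.1 in R 4.3.3. Input signals were background-corrected from the detection p-values, offset by 16, quantile-normalized and taken to log2 (neqc). Of the 25697 probes, 13750 were detected (p-value under 0.05) on 3 or more input arrays and tested in 1 limma fit over 15 arrays, with Benjamini-Hochberg adjustment over all tested probes. The number of arrays limits the precision. The fit was tested on simulated data.

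The 110 probes, the named-probe rule and the gene lists were chosen with earlier results of these data known. Named are the 8 probes with the largest mean difference, the 4 with the highest and the 4 with the lowest input change by day 6 among those called, the 2 brightest and 2 dimmest in input, the 2 whose difference dropped most and the 2 for which it rose most (here, dropped least) on day 6, and the 3 nearest to the limit on each side. The gene lists were not analysed here, for want of gene names.

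Deviations of AUF1 and IgG arrays of the same day and experiment number from the mean of their group had correlations between 0.24 and 0.80 (day 0), 0.17 and 0.56 (day 2), 0.02 and 0.74 (day 4), and 0.17 and 0.85 (day 6). On day 4 experiment 3 lay at 0.02. No such values are given for arrays of different experiment numbers, so these correlations do not test the pairing. It rests on the column names. Input arrays of days 3 and 6 with neighbouring array numbers correlated in the same way at 0.36 to 0.51 in all 5 pairs, found after the data were seen. Alternatives covered normalization, detection, the limits, single arrays and pairs, and the replicate block.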

Additional observations from a re-analysis of the deposited data

Results flagged for a closer look

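In 10 of 122 groups of 4 or 5 arrays or pairs that were checked, the highest or lowest value lay far from the others by Dixon's criterion. Chance gives about 1 in 20 groups. The day 6 pair of experiment 2 had the highest median difference of the 110 probes, 0.369, and the day 6 IgG array of experiment 3 their highest median percentile, 92.28. In input, ILMN_2640971 was lowest, at 7.256, on 1 of the 2 day 6 arrays of experiment 3. ILMN_2734142 and ILMN_2733524 were highest, at 8.231 and 10.54, on the day 0 array of experiment 4, and ILMN_2982890 was highest, at 8.414, on the day 3 array of experiment 4. In the pulldowns, ILMN_2945095 and ILMN_2942573 were highest among day 4 IgG arrays, at 8.164 and 7.613, on the unpaired array of experiment 2. ILMN_3158909 was lowest with AUF1 on day 0 in experiment 2, at 9.533, and highest with AUF1 on day 6 in experiment 1, at 9.655.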

How the results depend on the processing

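How many probes met the rule depended on the scale. It was 0 under median scaling and 0 without normalization, 181 after scaling by mean and SD (27 of them among the 110) and 156 with background correction before quantile normalization (all 110 among them). A mean difference of at least 0.3 gave 166 probes and at least 0.5 gave 63. Leaving out 1 pair gave 103 to 244 probes, with 210, 166, 244 and 188 without day 6 experiment 1, 2, 3 or 4. Leaving out all day 6 pairs, an alternative chosen after seeing the data, as was the run without normalization, gave 916. Replacing the rule by a limma fit of the same contrast and arrays gave 779 probes at a difference of at least 0.4 with the replicate block and 661 without it; since it reads the values that chose the 110 probes, it is no independent check of them. In input, the counts of the 110 probes called kept within 1.5 times under all alternatives, 46 to 58 for day 3 against day 0, 48 to 64 for day 6 against day 0, and 0 between day 3 and day 6. With a replicate block by experiment number they were 49, 55 and 0, and with a block by run of 3 neighbouring array numbers, added after seeing the data, 55, 56 and 0. Deviations of day 3 and day 6 arrays of the same run correlated at 0.36 to 0.51 in all 5 runs, and those of day 0 arrays with the other 2 days at -0.23 to 0.21, so only days 3 and 6 were taken as paired by run. Arrays of the same experiment number correlated at -0.32 to 0.51 and were not taken as paired. Under median scaling of input 8 probes were higher and 43 lower on day 3, and 10 higher and 38 lower on day 6. ILMN_2942573 and ILMN_3133448 each lost the day 6 call under 6 of 19 alternatives.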
